A study of Mus musculus with 12 samples.

Results

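This account covers what changed in the RNA of CCN6KOT cells, a mouse breast tumour line whose labels give the tumour as spindle metaplastic, when a construct named SET was added to a dominant negative TCF4 construct named DNTCF4. Every gene with 10 or more counts in at least 3 of the 6 libraries compared is a member, which left 14432 of the 55492 features in the table. The DNTCF4-SET group (3 libraries) was set against the DNTCF4-Vector group (3 libraries), which carries DNTCF4 without a second construct named in its label. Levels in 2 further groups of 3 libraries, PPGS-Vector (control lentivirus, without DNTCF4) and DNTCF4-EZH2 (DNTCF4 with an EZH2 construct), are given beside them. All cells were grown in serum, transduced with lentivirus and selected with puromycin, and the source was a line, with no age of an animal given. The labels do not expand SET or PPGS, do not say which part of a protein the SET construct encodes, and do not say whether the 3 libraries of a group come from separate cultures or clones. The p-values therefore reflect only how far these libraries spread, and that spread may be technical.

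As background, TCF4, the product of Tcf7l2, is a DNA-binding protein that recruits β-catenin to WNT target genes, and dominant negative forms lacking the β-catenin binding region block that recruitment. EZH2 is the methyltransferase of polycomb repressive complex 2, which places methyl groups on lysine 27 of histone H3 through a catalytic region called the SET domain. SET is also the name of a separate gene, Set, which encodes a histone chaperone and inhibitor of protein phosphatase 2A. In breast tumours, EZH2 is known for high levels in aggressive disease, and metaplastic tumours for mesenchymal gene expression.

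Depth was even. The 12 libraries held 23597545 to 33999982 counts, the 3 DNTCF4-Vector libraries between 26629841 and 31601273, and the 3 DNTCF4-SET libraries between 26738946 and 33023373. A floor of 3 counts corresponded to 0.0909 to 0.114 CPM in the 6 libraries, where CPM is the count of a gene relative to the scaled total of its library. DNTCF4-Vector replicate 1 stood apart from its group: the chi-square per degree of freedom over genes was 19.0 and 12.2 against the other replicates, which differed from each other by 3.17, and it was 2.62 to 3.88 between DNTCF4-SET libraries and 5.66 to 14.9 between DNTCF4-EZH2 libraries. No pair in these groups agreed within sampling noise, and each library was counted once. This does not show whether the libraries of a group come from separate cultures. The gene that names the line, Ccn6, had no count in the 6 libraries, and Trp53 had at most 1. The Cre feature had 4 to 6 counts in the DNTCF4-Vector libraries and 1 to 4 in the DNTCF4-SET libraries.

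The construct was looked for first. Reads assigned to Ezh2 stood at 68.6, 62.6 and 64.7 CPM in the DNTCF4-Vector libraries and at 553, 509 and 574 CPM in the DNTCF4-SET libraries. The groups did not overlap, and the fitted rise was 8.36-fold (log2 3.06 ± 0.05 SE, adjusted p = 6.68e-15). In the DNTCF4-EZH2 libraries the mean was 450 CPM ± 20.4 (SD, n = 3), and in PPGS-Vector 58.2 ± 1.49, so that the level with SET was 1.21-fold that with EZH2 (adjusted p = 0.00266). Reads of a construct and of the cell's own Ezh2 cannot be told apart in a count per gene. Ezh2 lies at chr6:47530139-47595341 on the minus strand of GRCm38.

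The gene Set went the other way by a small amount. Its levels were 665, 588 and 593 CPM with DNTCF4 alone and 533, 551 and 567 with SET, a fall of 1.12-fold (adjusted p = 0.0145) that lost the call without DNTCF4-SET replicate 1 (adjusted p = 0.0692) and in a fit on the 6 libraries alone (adjusted p = 0.078). Tcf7l2 stood at 36.9, 41.3 and 40.9 CPM against 37.8, 32.5 and 35.2, and these libraries overlapped (log2 -0.18 ± 0.10, adjusted p = 0.196). Against DNTCF4-EZH2, at 45.4 CPM, Tcf7l2 was lower by 0.37 on the log2 scale (adjusted p = 0.0325). Whether that call held with a library left out was not examined. Ctnnb1, the gene of β-catenin, was 1485 CPM ± 75.9 with DNTCF4 and 1566 ± 14.2 with SET (SD, n = 3), a difference that did not pass the test (adjusted p = 0.131). Without DNTCF4-Vector replicate 1, the library that stood apart, Ezh2, Set, Tcf7l2 and Ctnnb1 were all called, 2 higher and 2 lower. A DESeq2 Wald test on all libraries called 2 of the 4 higher and 1 lower.

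**Figure D1:**
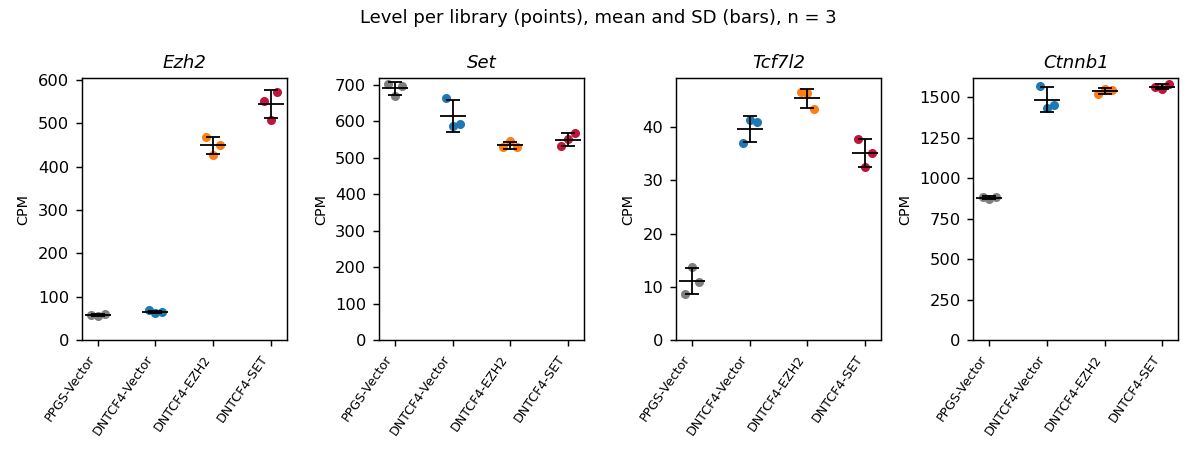
Level in CPM (y axis, from 0) of Ezh2, Set, Tcf7l2 and Ctnnb1 in each library of the 4 groups (x axis); points are libraries and black bars are the mean and SD, n = 3. Ezh2 stood at 509 to 574 CPM with SET and at 62.6 to 68.6 with DNTCF4 alone, while the other genes differed far less between these groups.

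Across the transcriptome the changes were many and small. Of the 14432 genes, 3886 (26.9%) passed an adjusted p of 0.05, 1878 of them higher with SET (13.0%) and 2008 lower (13.9%). The median size of a called change was 0.28 on the log2 scale, and the middle of all fitted changes, from the 5th to the 95th percentile, ran from -0.52 to 0.49. Changes of 2-fold or more numbered 224 (1.55%), 122 higher and 102 lower, and 97 of them concerned genes under 1 CPM in both groups. With at least 1 CPM in both groups, 25 genes rose and 54 fell by 2-fold or more. The 3 libraries of one group lay wholly above or below those of the other in 5407 genes (37.5%), 2627 with SET higher and 2780 with SET lower. A fit on the 6 libraries alone called 2538 genes, 2510 of them among the 3886. Without DNTCF4-Vector replicate 1, 4826 genes were called and 3480 were shared.

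**Figure D2:**
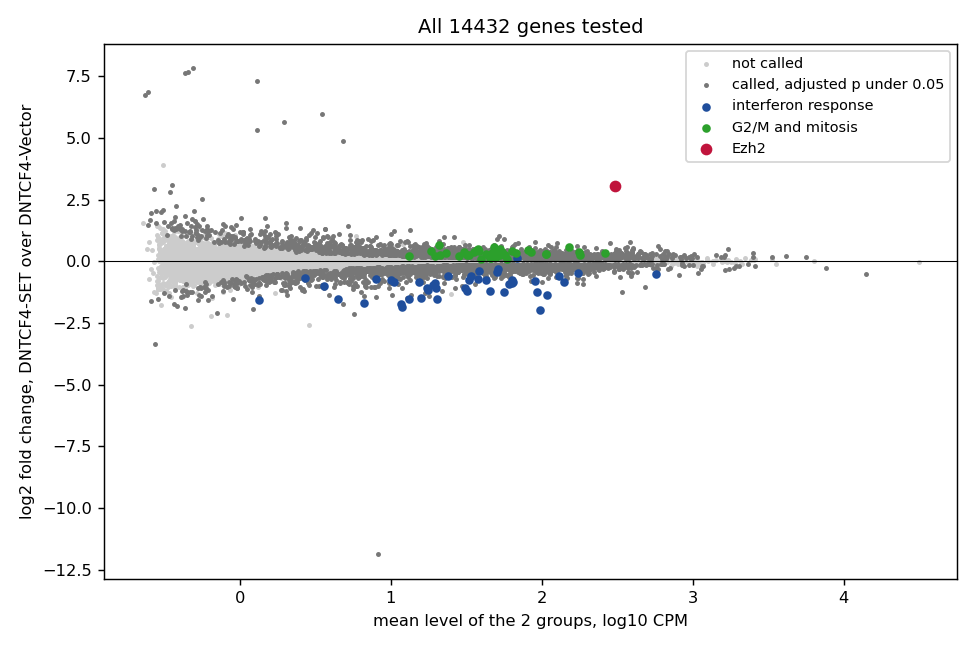
Fitted log2 fold change of DNTCF4-SET over DNTCF4-Vector (y axis) against the mean level of both groups in log10 CPM (x axis) for the 14432 genes tested; grey points are genes, darker where called, and colours mark Ezh2, interferon-response genes and mitosis genes. Ezh2 stands at 3.06, the interferon genes lie below 0 with 1 exception, and the widest values at the left and the isolated point near the bottom are genes with 0 or few counts in one group.

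The clearest fall was in interferon-response genes. In the cell, interferons signal from receptors at the surface to a set of antiviral genes, many of which carry an interferon-stimulated response element in their promoter. Of the 44 measured members of a 45-gene list, 43 were lower with SET (43 of 44 without overlap between libraries) and 1, Ifi27, was called higher (log2 0.13, adjusted p = 0.0294). The call of Ifi27 was lost when any 1 DNTCF4-SET library or DNTCF4-Vector replicate 3 was left out, in a fit on the 6 libraries alone and with no filter on low counts. Over all genes 13.9% were lower, and in 2780 of 14432 every DNTCF4-SET library lay below every DNTCF4-Vector library. The median change of the list was -0.87 on the log2 scale, beside -0.0056 over all genes, and the falls ranged from -1.96 to -0.33. Summed over the list, the level was 3040 to 3110 CPM with DNTCF4 alone and 1770 to 1790 CPM with SET.

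Ifi44, which encodes an interferon-induced protein, fell furthest within the list. Its levels were 162, 147 and 156 CPM with DNTCF4 alone and 37.8, 42.2 and 39.3 with SET, a 3.90-fold fall (log2 -1.96 ± 0.06 SE, adjusted p = 3.17e-12). Oasl2, of the oligoadenylate synthetase family, went from 145, 165 and 162 CPM to 60.3, 61.5 and 59.6, a fall of log2 -1.38 (adjusted p = 1.06e-10). Oas3, an oligoadenylate synthetase that activates RNase L, went from 63.5, 64.0 and 63.5 CPM to 27.8, 28.4 and 25.8, or 2.33-fold down (adjusted p = 1.37e-10). Gbp3, an interferon-induced GTPase, went from 141, 124 and 126 CPM to 54.9, 54.8 and 56.8, or 2.35-fold down (adjusted p = 2.85e-10). In each of these genes the lowest library without SET was more than 2 times the highest library with it.

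By the rule for the largest falls, 12 genes were named, and all of them are known interferon targets or members of such families. They were Ifit3b, Slfn4, Ifi44, Mx2, Ifit3, Oas1g, Mx1, Samd9l, Oas2, Cmpk2, Usp18 and Oas1b, with fitted falls from 4.38-fold (Ifit3b) to 2.78-fold (Oas1b). Mx2, a dynamin-like antiviral GTPase, went from 19.0, 18.4 and 18.8 CPM to 4.68, 5.34 and 5.27 (adjusted p = 6.22e-10). Usp18, which removes ISG15 from proteins and restrains interferon receptor signalling, went from 24.97, 24.81 and 20.64 CPM to 8.40, 8.39 and 8.12 (adjusted p = 3.23e-09). Ifit3 and Ifit3b, Mx1 and Mx2, and the Oas1 genes are near copies whose reads the counting may share between them, so that their separate values are uncertain.

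With an EZH2 construct in place of SET these genes lay lower still. Ifi44 was at 11.2 CPM in DNTCF4-EZH2, and SET exceeded it by 1.83 on the log2 scale (adjusted p = 3.2e-10). Of the 44 members, 34 were higher with SET than with EZH2, beside 2.28% of all genes, and 1 (Cxcl10) was lower, with a median difference of 0.48. The call of Cxcl10 was lost without DNTCF4-SET replicate 2 or 3, any 1 DNTCF4-EZH2 library or any 1 PPGS-Vector library. It was also lost with DESeq2's size factors, with limma on the deposited log values and with the replicate number as a block. The SET mean lay between the EZH2 mean and the DNTCF4-Vector mean in 42 of the 44. In 43 of the 44 the SET mean was also below the PPGS-Vector mean, and Ifi44 stood at 148 CPM there, near its 155 with DNTCF4 alone. With 1 library left out, between 31 and 37 members were higher than with EZH2. Of 20 markers of immune cells 5 passed the filter and 1 of them, Cd14, was lower, beside 13.9% of all genes. The call was lost without DNTCF4-SET replicate 2 or 3 or DNTCF4-Vector replicate 2 or 3. A DESeq2 Wald test and a fit on the 6 libraries alone lost it too. Without DNTCF4-Vector replicate 2, 1 of the markers was called higher. Ptprc, Cd3d and Tyrobp were at or near 0 in all 6 libraries, and the summed level was 102 to 127 CPM with DNTCF4 alone and 115 to 121 CPM with SET.

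**Figure D3:**
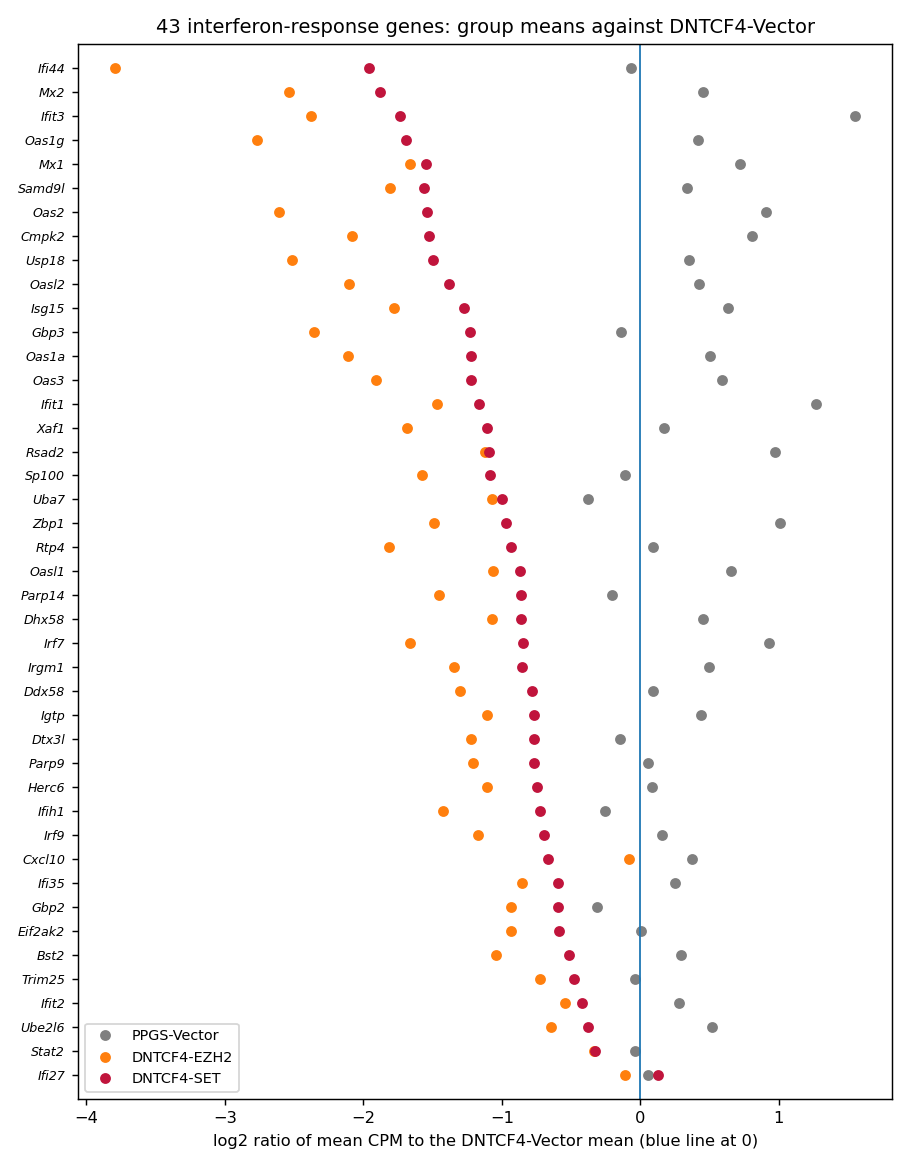
Log2 ratio of each group's mean CPM to the DNTCF4-Vector mean (x axis, vertical line at 0) for 43 of the 44 interferon-response genes (y axis), with 1 point per group mean of 3 libraries. The DNTCF4-SET points lie left of the line except for Ifi27, DNTCF4-EZH2 points lie left of the DNTCF4-SET points in 42 of the 43 genes, and PPGS-Vector points lie right of them in 42.

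Promoter sequence was read where RefSeq (GRCm38.p6) gave a window from 250 bases before to 50 bases after a gene's start, which it did for 10509 of the genes tested. The motif GAAANNGAA, searched on both strands as the core of the interferon-stimulated response element, was in 20 of the 37 windows of the list (54.1%) and in 7.04% of all 13377 windows. Among the genes called lower it was in 10.4% of windows and among those called higher in 4.72%. The stretches below are shown because they belong to called members of the list, taken in order of p among those with a match before the start, with the match in capitals and the strand of the gene read 5′ to 3′.
Oas3, chr5:120777690-120777758, minus strand: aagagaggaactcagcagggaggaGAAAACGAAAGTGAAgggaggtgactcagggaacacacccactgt
Gbp3, chr3:142559976-142560043, plus strand: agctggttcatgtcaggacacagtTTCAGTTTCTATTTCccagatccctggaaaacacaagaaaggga
Isg15, chr4:156200846-156200914, minus strand: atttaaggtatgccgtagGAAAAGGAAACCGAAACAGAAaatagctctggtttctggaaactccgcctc
Oas1a, chr5:120907526-120907569, minus strand: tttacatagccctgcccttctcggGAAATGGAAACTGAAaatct
Ifit3, chr19:34583397-34583465, plus strand: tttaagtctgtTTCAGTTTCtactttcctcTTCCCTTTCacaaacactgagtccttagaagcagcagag
In these stretches the matches overlap or stand in tandem, 3 in the Isg15 stretch and 2 in each of the others. Isg15, a ubiquitin-like modifier, went from 81.7, 77.3 and 78.2 CPM to 31.6, 32.8 and 34.04 (2.41-fold down, adjusted p = 5.95e-10). Oas1a went from 43.8, 44.99 and 45.9 CPM to 18.7, 18.9 and 20.1 (2.34-fold down, adjusted p = 7.79e-10), and Ifit3, which aids antiviral IFIT complexes, from 19.4, 17.7 and 17.01 CPM to 4.93, 5.90 and 5.43 (3.32-fold down, adjusted p = 1.43e-09). A match is a description of letters and not evidence of a bound factor.

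Of 35 measured cytokine genes and targets of the inflammatory factor NF-κB, 14 fell and 4 rose, with a median of -0.10, beside 13.9% lower and 13.0% higher among all genes. Cxcl2, a neutrophil chemokine, went from 480, 476 and 446 CPM to 299, 312 and 310 (1.52-fold down, adjusted p = 1.41e-07), while PPGS-Vector held 8.96 CPM. Lif, a cytokine of the interleukin 6 family, went from 238, 235 and 246 CPM to 179, 169 and 172 (1.38-fold down, adjusted p = 1.29e-07). For both genes, every library with SET lay below every DNTCF4-Vector library. The acute phase gene Saa3 rose, from 250, 300 and 285 CPM to 479, 487 and 485 (1.74-fold, adjusted p = 7.50e-08), and so did C3, the central complement component, from 324, 347 and 336 CPM to 470, 481 and 458 (1.40-fold, adjusted p = 1.29e-07). In none of these 4 genes did the groups overlap. They were named for the smallest p in the list, so this adds no support, and 37.5% of all genes did not overlap.

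Stress-response genes fell by small amounts. In the unfolded protein and amino acid response, 16 of 35 measured members fell and 1 rose, beside 13.9% and 13.0% of all genes. Called falls ran from -0.56 to -0.13 on the log2 scale, and the median of the list was -0.11. Atf4, the transcription factor of the integrated stress response, went from 658, 637 and 656 CPM to 522, 521 and 528 (1.24-fold down, adjusted p = 2.09e-06). Manf, a secreted factor induced by endoplasmic reticulum stress, went from 234, 229 and 228 CPM to 171, 184 and 183 (1.28-fold down, adjusted p = 1.21e-05). Without DNTCF4-Vector replicate 1, 3 members rose, and without replicate 2 of that group, 2. The member that rose with all libraries was Vldlr, a lipoprotein receptor, from 226, 218 and 226 CPM to 282, 276 and 283 (log2 0.33, adjusted p = 2.45e-06). Among 20 immediate early genes, 6 fell and 0 rose, and 13 were lower without DNTCF4-Vector replicate 1, the library that stood apart. Atf3, which belongs to both lists, went from 39.5, 39.8 and 38.5 CPM to 26.8, 26.8 and 26.4 (1.47-fold down, adjusted p = 1.97e-07). In antigen presentation 6 of 21 fell and 3 rose, beside 13.9% and 13.0% of all genes. The 6 became 2 in a fit on the 6 libraries alone and without DNTCF4-SET replicate 3, and 3 without DNTCF4-Vector replicate 2 or 3. Among them, Tap1, a peptide transporter, went from 85.9, 94.0 and 91.2 CPM to 73.5, 74.3 and 69.5 (adjusted p = 1.57e-04), while the class I gene H2-D1 was higher by 0.16 on the log2 scale (adjusted p = 0.00212).

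Mitosis genes rose together. Of 40 genes of G2 phase and mitosis, 35 were higher with SET and 0 lower, beside 13.0% higher among all genes, and the median was 0.32 on the log2 scale (called members from 0.17 to 0.64). Mki67, the proliferation antigen, went from 125, 116 and 122 CPM to 186, 179 and 176 (1.49-fold, adjusted p = 4.47e-08). Cenpf, a kinetochore protein, went from 40.8, 36.8 and 37.9 CPM to 57.2, 58.2 and 58.4 (log2 0.59, adjusted p = 1.37e-07). Ccnb2, a mitotic cyclin, went from 17.7, 15.4 and 15.9 CPM to 24.6, 24.7 and 27.1 (1.56-fold, adjusted p = 7.54e-06), and Aurka, a spindle kinase, rose 1.33-fold (adjusted p = 9.31e-06). None of these genes had overlapping libraries, nor did 37.5% of all genes. Because they were named for the smallest p in the list, this adds no support.

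Of 40 genes of the G1 to S transition and DNA replication, 8 were lower and 0 higher, with a median of -0.09, beside 13.9% lower among all genes. The 8 became 4 or 5 when any 1 DNTCF4-SET library was left out (4 without replicate 2), 4 in a fit on the 6 libraries alone, and 11 (with 1 higher) without DNTCF4-Vector replicate 1. Mcm6, a subunit of the replicative helicase, went from 83.5, 76.3 and 75.7 CPM to 60.3, 64.2 and 64.3 (log2 -0.32, adjusted p = 1.53e-04), and Mcm2 of the same complex fell 1.16-fold (adjusted p = 0.0027). Ccne1, the G1 to S cyclin, fell 1.16-fold as well (adjusted p = 0.00993), a call lost without DNTCF4-SET replicate 2. The other 32 did not pass the test.

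With EZH2 in place of SET the mitosis genes were higher than with SET: the SET mean lay between the DNTCF4-Vector and DNTCF4-EZH2 means in 40 of 40. The difference between SET and EZH2 passed the test in 19 of the 40, all lower with SET, beside 3.12% of all genes. That count depended on single libraries: it was 33 without DNTCF4-Vector replicate 1, which is outside this comparison but enters the shared estimate of spread, 32 in a fit on the 6 libraries compared alone, and 8 to 10 when any 1 of those 6 was left out. Mki67 itself was 194 CPM with EZH2 and 181 with SET, a difference that did not pass (adjusted p = 0.12).

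The mitosis promoters were searched for TTTGAA, the core of the cell cycle homology region, and for CCAAT, bound by NF-Y. TTTGAA was in 29 of the 36 windows of the list (80.6%) and in 12.1% of all windows, and in 33.3% of the list's windows when only the 250 bases before the start were read. CCAAT was in 72.2% of the list's windows and 37.9% of all windows, and in 62.5% of the windows of the replication list, in which TTTGAA was in 12.5%. The next stretches belong to called members in order of p with TTTGAA before the start, and matches to either motif on either strand are in capitals. The Ccnb2 stretch holds TTTGAA alone.
Mki67, chr7:135716427-135716522, minus strand: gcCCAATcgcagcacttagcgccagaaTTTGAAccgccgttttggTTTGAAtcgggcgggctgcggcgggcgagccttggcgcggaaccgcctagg
Ccnb2, chr9:70421671-70421766, minus strand: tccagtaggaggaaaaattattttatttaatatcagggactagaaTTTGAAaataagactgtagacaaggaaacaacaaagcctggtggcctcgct
Prc1, chr7:80294401-80294475, plus strand: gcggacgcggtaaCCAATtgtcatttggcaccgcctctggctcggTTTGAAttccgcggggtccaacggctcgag
Ube2c, chr2:164769855-164769928, plus strand: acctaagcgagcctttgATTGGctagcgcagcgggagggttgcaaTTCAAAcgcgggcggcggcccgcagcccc
Prc1, a protein of the central spindle, stood at 73.7 CPM ± 5.17 with DNTCF4 and 96.7 ± 1.65 with SET, and Ube2c, a ubiquitin-conjugating enzyme of the anaphase-promoting complex, at 67.6 ± 7.25 and 94.0 ± 3.65 (SD, n = 3).

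Ribosome biogenesis genes fell. Of 38 measured members of a list of nucleolar and MYC-regulated growth genes, 27 were lower and 0 higher, with a median of -0.24. Over all genes 13.9% were lower and 13.0% higher. Odc1, the first enzyme of polyamine synthesis, went from 955, 985 and 952 CPM to 648, 657 and 647 (1.48-fold down, adjusted p = 4.02e-09). Nop56, a core protein of small nucleolar ribonucleoproteins, went from 181, 172 and 169 CPM to 115, 117 and 117 (log2 -0.58, adjusted p = 9.46e-08). Ddx21, a nucleolar helicase, fell 1.29-fold (adjusted p = 3.41e-06) and Dkc1, the pseudouridine synthase, 1.31-fold (adjusted p = 1.09e-05). Of 37 ribosomal protein genes 2 rose and 1 fell, below the shares over all genes, with a median of 0.0011. That list depended on single libraries: without DNTCF4-Vector replicate 2, 11 were higher and 1 lower, and without replicate 1 of that group, 2 were higher and 5 lower.

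WNT target genes showed no common direction. Of 26 listed targets 14 passed the filter, and of these 4 rose (Bambi, Apcdd1, Notum and Nkd2) and 1 fell (Myc), with a median of 0.07. Over all genes 13.0% rose and 13.9% fell. A fit on the 6 libraries alone called 2 of the 14 higher and 1 lower. Bambi, a pseudoreceptor of the TGF-β family, went from 1.86, 1.75 and 1.94 CPM to 3.50, 4.59 and 4.06 (2.19-fold, adjusted p = 2.98e-05). Apcdd1, a WNT inhibitor at the membrane, went from 2.32, 2.51 and 2.63 CPM to 4.43, 4.25 and 3.82 (1.67-fold, adjusted p = 4.59e-04). Notum, which inactivates WNT ligands by removing their lipid, went from 2.02, 2.76 and 2.74 CPM to 4.47, 3.65 and 3.15 (1.48-fold, adjusted p = 0.00847), against 17.6 CPM in PPGS-Vector. Nkd2, which binds the WNT mediator Dishevelled, went from 2.28, 2.57 and 2.67 CPM to 4.29, 3.61 and 2.94 (1.43-fold, adjusted p = 0.0259), a call lost without DNTCF4-SET replicate 1 or 2 or DNTCF4-Vector replicate 1. The 4 genes that rose are known as inhibitors of WNT or TGF-β family signals, and each stood under 5 CPM.

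Myc, a growth-promoting transcription factor, went from 199, 253 and 241 CPM to 193, 194 and 179 (1.23-fold down, adjusted p = 0.00346). Its groups did not overlap, but DNTCF4-Vector replicate 1 lay near the SET libraries. Axin2, a negative feedback target often used as a readout of β-catenin, was at 0.760, 0.762 and 0.951 CPM with DNTCF4 alone and 0.822, 1.01 and 0.879 with SET (adjusted p = 0.718), against 3.01 CPM in PPGS-Vector. Ccnd1, Cd44, Tcf7 and Znrf3 did not pass either (adjusted p from 0.182 to 0.87). Among WNT ligands, receptors and regulators 13 of 35 rose and 2 fell (8 and 2 in a fit on the 6 libraries alone, 14 and 6 without DNTCF4-Vector replicate 1). The shares over all genes were 13.0% and 13.9%. The secreted inhibitor Sfrp1 went from 16.5, 15.4 and 17.2 CPM to 26.1, 24.3 and 25.1 (1.54-fold, adjusted p = 7.97e-07), the agonist Rspo3 rose 2.04-fold (adjusted p = 9.85e-05) and the receptor Fzd5 fell 1.33-fold (adjusted p = 3.22e-04).

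Extracellular matrix genes rose in most lists. Of 17 collagen genes 12 were higher and 1 lower, with a median of 0.30, and of 30 matrix glycoproteins and proteoglycans 21 were higher and 1 lower, with a median of 0.31. Over all genes 13.0% were higher and 13.9% lower. The lower call was lost in both lists in a fit on the 6 libraries alone, and among collagens without replicate 2 or 3 of either group. Among glycoproteins it was lost without any 1 DNTCF4-SET library, DNTCF4-Vector replicate 1 or PPGS-Vector replicate 2 or 3. DESeq2's size factors and limma on the deposited log values lost it there too. Col12a1, a collagen associated with fibrils, went from 34.2, 32.8 and 34.7 CPM to 71.5, 69.2 and 68.6 (2.06-fold, adjusted p = 4.85e-10), while PPGS-Vector held 124 CPM. Col4a5, of basement membranes, went from 14.2, 15.6 and 14.9 CPM to 28.8, 26.2 and 24.9 (1.78-fold, adjusted p = 2.33e-07), and Col1a2, of fibrillar type I collagen, rose 1.31-fold (adjusted p = 3.85e-06). Nid1, which links laminin and collagen IV, went from 286, 293 and 301 CPM to 447, 436 and 424 (1.49-fold, adjusted p = 9.42e-09). Thbs1, thrombospondin 1, went from 98.1, 99.8 and 103 CPM to 152, 149 and 144 (1.48-fold, adjusted p = 2.63e-08), and the proteoglycan gene Dcn rose 1.47-fold (adjusted p = 1.09e-07). The groups did not overlap in any of these genes, nor in 37.5% of all genes. As members named for the smallest p in their lists, they could hardly overlap.

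Enzymes that process or cut the matrix moved both ways. Among 15 genes of collagen processing 7 rose and 1 fell (2 without DNTCF4-Vector replicate 1), beside 13.0% and 13.9% of all genes. Loxl2, a lysyl oxidase that crosslinks collagen, went from 73.1, 70.6 and 70.5 CPM to 93.8, 90.7 and 93.9 (log2 0.38, adjusted p = 1.68e-06), whereas Lox of the same family fell from 53.8, 47.9 and 52.4 CPM to 37.9, 41.3 and 41.3 (1.28-fold, adjusted p = 1.77e-04). Of 29 matrix proteases and inhibitors 15 rose and 6 fell, beside 13.0% and 13.9% of all genes. Mmp10, stromelysin 2, fell from 688, 632 and 627 CPM to 316, 313 and 320 (2.05-fold, adjusted p = 6.60e-11), and Plau, the urokinase activator of plasminogen, fell from 58.5, 54.4 and 56.1 CPM to 39.0, 39.1 and 38.2 (1.45-fold, adjusted p = 3.53e-07). The inhibitors Serpine2 and Timp2 rose, Serpine2 from 86.6, 82.0 and 83.5 CPM to 134, 133 and 135 (1.60-fold, adjusted p = 4.02e-09) and Timp2 by 1.22-fold (adjusted p = 2.79e-06).

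**Figure D4:**
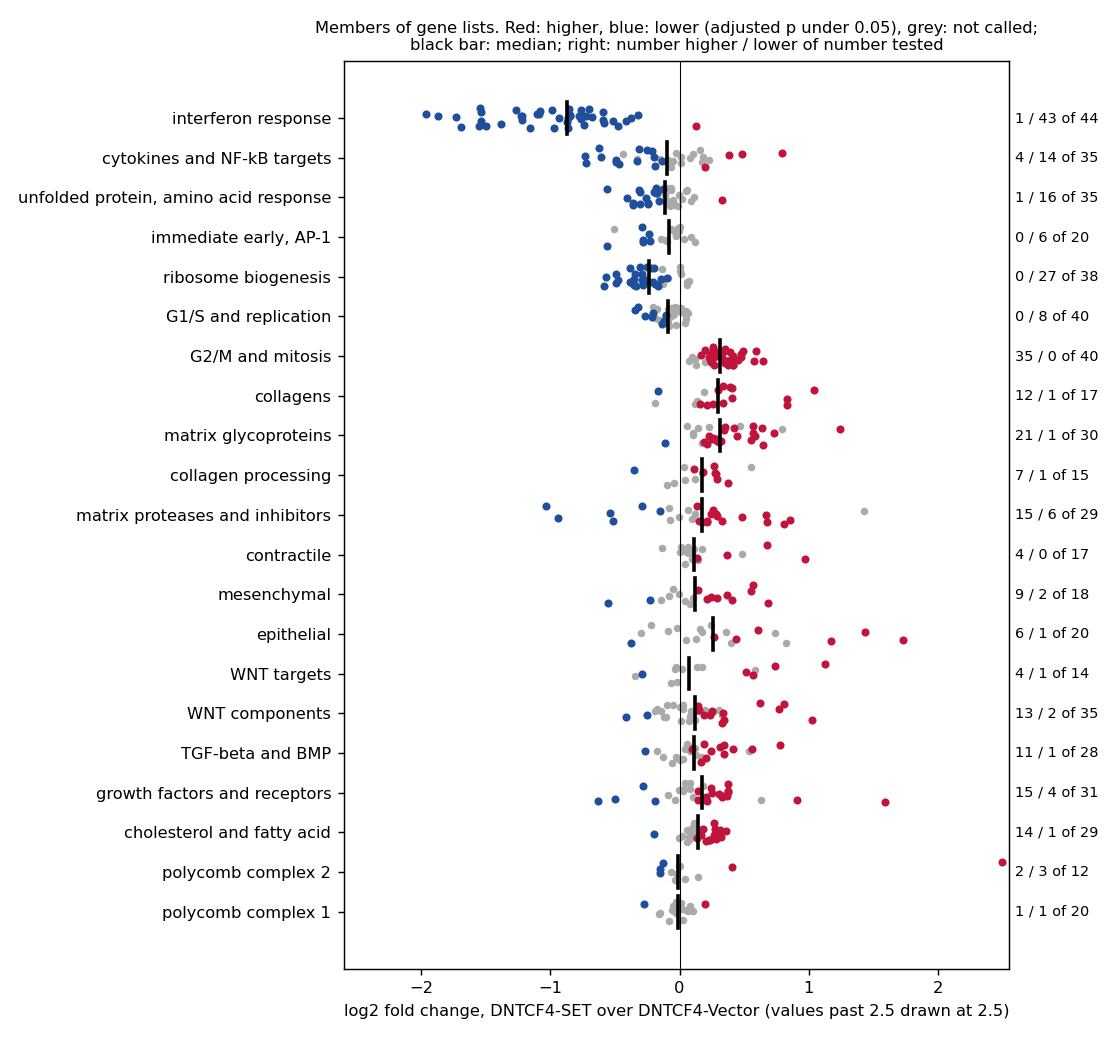
Fitted log2 fold change of DNTCF4-SET over DNTCF4-Vector (x axis) for every measured member of 21 gene lists (y axis); red points were called higher, blue lower, grey not called, the black bar is the median, and the counts of higher and lower members are at the right. Interferon genes form the leftmost list with 43 of 44 lower, mitosis genes have 35 of 40 higher, and Ezh2 (3.06, drawn at the edge) is the far right point of polycomb complex 2.

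Mesenchymal and epithelial genes were examined because the tumour is labelled spindle metaplastic. Vim, the mesenchymal filament vimentin, stood at 644 CPM ± 30.07 and 691 ± 21.7 in the groups without and with SET (SD, n = 3), and the difference did not pass (adjusted p = 0.0711). Krt5, of basal epithelium, had no count in the 6 libraries, Cdh1 and Epcam had group means of 0.223 to 1.01 CPM, and Krt8 and Krt18, keratins of simple epithelium, were at 82.8 and 247 CPM with DNTCF4 alone. Of 24 listed mesenchymal genes 18 passed the filter, and 9 rose and 2 fell, beside 13.0% and 13.9% of all genes. Twist1 had no count in the 6 libraries. Fap, Thy1 and Lum had none in the DNTCF4-Vector libraries and some with SET, but did not pass the filter and were not tested. The background of scattered reads described below was also lowest in DNTCF4-Vector. Prrx1, a mesenchymal homeobox factor, went from 93.5, 82.4 and 85.8 CPM to 110, 117 and 120 (1.33-fold, adjusted p = 2.02e-05), and Fn1, fibronectin, rose 1.16-fold (adjusted p = 0.00483). Snai2, a repressor of E-cadherin, fell from 33.2, 31.0 and 32.2 CPM to 27.1, 26.1 and 28.7 (1.17-fold, adjusted p = 0.00548), and Foxf1, a mesenchymal forkhead factor, fell 1.47-fold (adjusted p = 7.02e-05). Zeb1, Zeb2, Snai1 and Cdh2 had overlapping libraries and did not pass.

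Of 20 epithelial genes 6 rose and 1 fell, beside 13.0% and 13.9% of all genes. Without DNTCF4-SET replicate 2, or among genes with a mean of at least 1 CPM, 3 rose; without DNTCF4-SET replicate 3 or DNTCF4-Vector replicate 2, 2 fell. Krt7, a simple keratin, fell from 56.8, 64.4 and 62.5 CPM to 47.5, 45.8 and 47.8 (log2 -0.38, adjusted p = 5.28e-05). Krt19, another, rose from 9.88, 14.6 and 12.6 CPM to 15.97, 18.01 and 16.49 (1.36-fold, adjusted p = 0.0114, or 0.0515 without DNTCF4-SET replicate 2). The others that rose were the junction genes Cldn4, Cldn1, Ocln and Dsp and the adhesion gene Epcam; Epcam went from 0.3041, 0.2542 and 0.1098 CPM to 0.429, 0.865 and 0.940 (adjusted p = 0.0066), near the level of a few counts. Of 9 adipocyte markers 4 passed the filter and 3 rose, Lpl among them from 53.6, 52.8 and 50.7 CPM to 88.2, 87.3 and 84.0 (1.65-fold, adjusted p = 3.71e-08), and the markers summed to 66.4 to 67.7 CPM without SET and 104 to 109 with it. Summed endothelial markers were 8.94 to 10.6 and 10.4 to 11.9 CPM, and erythroid markers at most 0.151 CPM. The part of such cells in the results was not tested, and in bulk RNA fewer cells of a type and less RNA per cell cannot be told apart.

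Genes of the polycomb complexes other than Ezh2 changed by small amounts. In polycomb repressive complex 2, 12 members were measured, of which Ezh2 and Epop rose and Eed, Aebp2 and Rbbp7 fell. Over all genes 13.0% were higher and 13.9% lower, so these counts are not below those shares. The 3 falls became 0 without DNTCF4-SET replicate 1 or in a fit on the 6 libraries alone, and 1 without replicate 2 or 3 of that group. Epop, an accessory subunit, went from 4.75, 5.02 and 5.23 CPM to 6.967, 6.957 and 6.002 (1.32-fold, adjusted p = 0.00911). Eed, the core subunit that reads the methyl mark, went from 50.3, 49.8 and 49.2 CPM to 44.37, 45.01 and 44.74 (1.11-fold down, adjusted p = 0.0148). The core subunit Suz12 (log2 -0.01 ± 0.09) and the paralog Ezh1 (log2 0.01 ± 0.05) did not pass. In complex 1, Scmh1 rose and Pcgf6 fell among 20 measured genes, below the shares over all genes. The fall of Pcgf6 was 1.21-fold (adjusted p = 0.00164). The call of Scmh1 was lost without DNTCF4-SET replicate 2 and in a fit on the 6 libraries alone. Without DNTCF4-Vector replicate 1, 3 genes of complex 1 were higher and 4 lower. Neither of the lysine 27 demethylases passed, Kdm6a (log2 -0.09, adjusted p = 0.206) or Kdm6b (log2 0.16, adjusted p = 0.182), nor did Bap1, Asxl1 and Asxl2 of the complex that removes ubiquitin from histone H2A. Of these 5 genes, 1 was called higher without DNTCF4-Vector replicate 2.

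Of 54 developmental transcription factors listed as classical polycomb targets, 22 passed the filter, and 3 rose and 3 fell, which is near the shares over all genes (13.0% and 13.9%). Without DNTCF4-SET replicate 3, 1 was higher and 2 lower, and without DNTCF4-Vector replicate 1, 3 and 5. The members named by the rule were Irx3, which fell from 21.6, 27.5 and 25.5 CPM to 20.65, 19.97 and 18.55 (1.26-fold, adjusted p = 0.00379), and Wt1, which rose from 11.3, 10.9 and 12.3 CPM to 13.2, 13.4 and 13.8 (1.17-fold, adjusted p = 0.0144, a call lost without DNTCF4-SET replicate 3 or DNTCF4-Vector replicate 2), with Prrx1 and Foxf1 as above. Besides Set itself, 10 partners of the SET protein were measured. Anp32b, a histone chaperone of the ANP32 family, fell 1.17-fold (adjusted p = 5.54e-04) and kept its call under every setting run. Nme1 (adjusted p = 0.0429) and Hmgb2 (log2 0.10, adjusted p = 0.0484) were called lower and higher, and both calls were lost when any 1 of the DNTCF4-SET libraries was left out.

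Other lists are given with the shares over all genes (13.0% higher, 13.9% lower) beside them. Among growth factors and receptors 15 of 31 rose and 4 fell: Igf1r, a receptor of insulin-like growth factors, rose by 0.33 on the log2 scale (adjusted p = 1.20e-05), Flt1, a VEGF receptor, 1.26-fold (adjusted p = 9.31e-06), and Areg, an EGF receptor ligand, fell from 48.0, 47.5 and 47.1 CPM to 33.4, 34.1 and 33.5 (1.41-fold, adjusted p = 1.86e-06). In cholesterol and fatty acid synthesis 14 of 29 rose and 1 fell (9 rose without DNTCF4-SET replicate 3, and 8 in a fit on the 6 libraries alone), and the regulator Srebf2 went from 213, 232 and 231 CPM to 281, 271 and 264 (1.21-fold, adjusted p = 1.35e-04). In the TGF-β and BMP list 11 of 28 rose and 1 fell, with Tgfb2 up 1.47-fold (adjusted p = 1.26e-05). Of 21 cell cycle inhibitors and p53 targets 3 rose and 4 fell, near the shares over all genes, and without DNTCF4-SET replicate 3 the counts were 2 and 2. Among the members called were Cdkn2a, 1.19-fold up (adjusted p = 9.07e-05), and Mdm2, 1.36-fold down (adjusted p = 7.70e-06).

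Most of the largest rises after Ezh2 were in genes of low level. The rule named Uchl1, Col25a1, Sort1, Slc16a9, Rhbdl3, Robo2, Samd5, Gli2, Gna14, Htra3 and Sel1l3 besides Ezh2, with SET means of 1.14 to 7.63 CPM. Uchl1, a neuronal deubiquitinase, went from 0.570, 0.858 and 0.549 CPM to 2.25, 2.44 and 2.18 (3.42-fold, adjusted p = 4.97e-05). Robo2, a receptor of SLIT guidance ligands, went from 2.74, 2.45 and 3.26 CPM to 7.75, 7.75 and 7.40 (2.72-fold, adjusted p = 1.29e-07). Sort1, a sorting receptor, went from 0.988, 1.37 and 0.732 CPM to 3.47, 2.86 and 2.82 (2.92-fold, adjusted p = 1.39e-04). Uchl1, Sort1 and Sel1l3 were also higher with SET than with EZH2, by 0.91, 0.74 and 0.91 on the log2 scale (adjusted p = 0.0168, 0.047 and 0.00036). Whether these calls against EZH2 held with a library left out was not examined.

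A background of scattered reads moved with these low levels. Olfactory and vomeronasal receptor genes, which this cell type should not use, had a count in 69, 81 and 77 genes with DNTCF4 alone and in 325, 472 and 421 genes with SET, and summed to 45.7 to 53.7 CPM and 61.0 to 89.6 CPM. DNTCF4-Vector was the lowest of the 4 groups: DNTCF4-EZH2 libraries had a count in 241 to 311 such genes (56.4 to 60.0 CPM) and PPGS-Vector libraries in 550 to 774 (96.4 to 293 CPM). The DNTCF4-Vector and DNTCF4-SET groups did not overlap, although the difference of 25.2 CPM could not pass an exact permutation test (p = 0.1, two-sided, the smallest that 3 against 3 libraries allow). Only 18 of these receptor genes passed the filter, and 2 were called higher with SET and 2 lower, near the shares over all genes (13.0% and 13.9%). Of the 122 genes that rose by 2-fold or more, 66 were under 1 CPM in both groups, against 31 of the 102 that fell. The part of this background in the low-level rises was not tested.

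The direct comparison of SET with EZH2, in which DNTCF4-Vector does not enter the difference, called 780 genes (5.40%), 329 higher with SET (2.28%) and 451 lower (3.12%), and 19 by 2-fold or more. This count moved with single libraries: it was 2108 without DNTCF4-Vector replicate 1, and between 378 and 473 when any 1 of the 6 libraries compared was left out. The 10 genes with the smallest p were Ifi44, Neat1, Gbp3, Mir100hg, Rtp4, Apol9b, Bst2, Oas1a, Pkdcc and Oas3, of which 7 are interferon-induced genes that had fallen less with SET. Bst2, tetherin, which holds budding virus particles at the cell surface, stood at 664, 690 and 662 CPM with DNTCF4 alone, at 479, 464 and 469 with SET and at a mean of 326 with EZH2 (adjusted p = 3.1e-07 between SET and EZH2). Pkdcc, a secreted tyrosine kinase, was at 264 CPM with DNTCF4 alone, 210 with SET and 141 with EZH2.

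Neat1 and Mir100hg went further with SET than with EZH2. Neat1, the long noncoding RNA that builds nuclear paraspeckles, went from 484, 476 and 471 CPM to 198, 201 and 199 with SET (2.39-fold down, log2 -1.26 ± 0.03 SE, adjusted p = 7.71e-13), while DNTCF4-EZH2 held 347 CPM and PPGS-Vector 324. The difference between SET and EZH2 was -0.80 on the log2 scale (adjusted p = 5.9e-10). Mir100hg, a microRNA host transcript, went from 131, 133 and 123 CPM to 72.6, 71.5 and 72.5 (1.78-fold down, adjusted p = 8.87e-10), against 111 CPM with EZH2 and 83.7 in PPGS-Vector. The SET libraries were the lowest of the 4 groups for both genes.

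**Figure D5:**
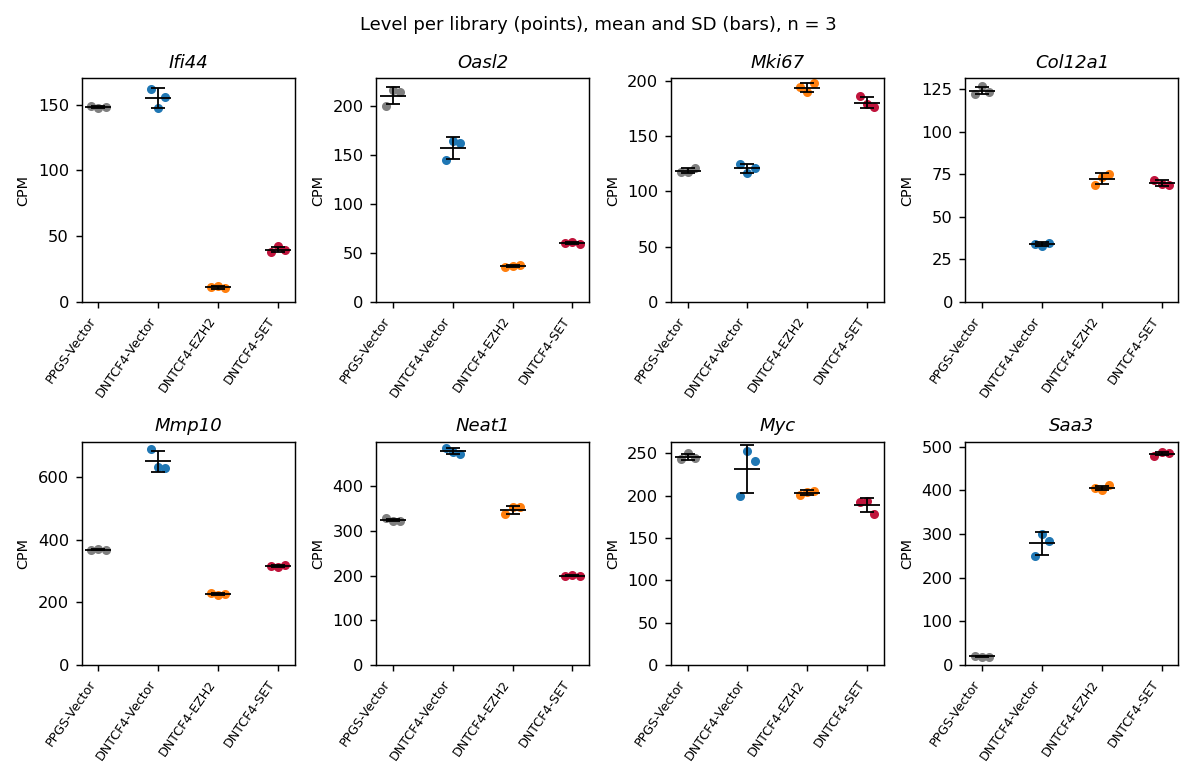
Level in CPM (y axis, from 0) of 8 genes in each library of the 4 groups (x axis); points are libraries and black bars are the mean and SD, n = 3. Ifi44 and Oasl2 are lowest with EZH2 and intermediate with SET, Mki67, Col12a1 and Saa3 stand higher with SET than with DNTCF4 alone, and Neat1 is lowest with SET, at 198 to 201 CPM.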

How the data were processed

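RNA of 12 libraries was measured, 3 in each of 4 groups that their titles name. One table, as deposited, holds expected counts, estimated reads per gene that the authors made without normalisation, all whole numbers here. A second deposited table holds log2 values (regularised log transform) for 21754 genes, used for an alternative only. The submitters' processing notes name cutadapt 2.3, FastQC 0.11.8, STAR 2.7.8a, RSEM 1.3.3, DESeq2 and GRCm38, without order or settings, and no source used here gives the strandedness. Reads of overlapping and antisense genes cannot be told apart. Genes with 10 or more counts in 3 of the 6 libraries compared were kept. 321 genes just inside this limit (3 libraries) had a median mean count of 9.83, and 419 just outside (2 libraries) one of 8.0; 73 passed only through the SET libraries and 34 only through the DNTCF4-Vector libraries.

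edgeR 4.0.16 (R 4.3.3) was used: TMM scaling, 1 mean per group over all 12 libraries, 8 residual degrees of freedom, quasi-likelihood tests with Benjamini-Hochberg adjustment over the 14432 genes, called at 0.05. The biological coefficient of variation was 5.12%. CPM values use the TMM-scaled totals, and levels are not compared between genes. The steps were tested on simulated data. limma 3.58.1 and DESeq2 1.42.0 gave alternatives, and left-out libraries, other filters and a replicate block were tried. The members and gene lists were chosen with earlier results of these data known. Named genes followed a rule: the 12 largest rises and falls among called genes whose libraries do not overlap, with a mean of 1 CPM or more in the higher group and without predicted models, the construct genes, up to 4 called members with the smallest p per list (every member of the polycomb, SET, WNT target, mesenchymal and epithelial lists), and the 10 smallest p against DNTCF4-EZH2. Promoters shown are called members by p with the motif before the start, in order. Genes named outside the rule (Cxcl10, Ifi27, Kdm6a, Kdm6b, Bap1, Asxl1, Asxl2, Malat1, Gm37376, Gm10800 and Gm10801) were chosen after their values were seen. One member of the interferon list is not reported by name here. Lists are described by counts and medians, with no test.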

Additional observations from a re-analysis of the deposited data

Results flagged for a closer look

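The effect of the second construct differed between SET and EZH2, by the test of the difference itself, in the 10 genes with the smallest p. SET was above EZH2 on the log2 scale by 1.83 in Ifi44, 1.12 in Gbp3, 0.89 in Oas1a, 0.88 in Rtp4, 0.69 in Oas3, 0.58 in Pkdcc, 0.57 in Apol9b and 0.53 in Bst2. The differences were -0.80 in Neat1 and -0.62 in Mir100hg, where SET was the lower. Apol9b and Oas1a have near copies in the genome, so their separate values are uncertain.

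Another difference was seen in genes of which most did not pass the filter. The summed level of olfactory and vomeronasal receptor genes was 73.6 CPM ± 14.6 with SET and 48.4 ± 4.56 with DNTCF4 alone (SD, n = 3). It did not pass an exact permutation test (p = 0.1, the smallest possible), and PPGS-Vector libraries held 96.4 to 293 CPM. Of the 18 such genes tested, 2 were called higher with SET and 2 lower, near the shares over all genes (13.0% and 13.9%).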

How the results depend on the processing

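Fitting only the 6 libraries compared moved the count of changed genes from 3886 to 2538, and those lower to 1239; for SET against EZH2 it moved 780 to 2187 (1100 higher, 1087 lower). A 2-fold limit left 224 genes (122 higher, 102 lower), and 19 (14 and 5) against EZH2. Leaving out 1 library gave 378 to 2108 genes against EZH2, 162 to 985 higher and 199 to 1123 lower; the count of 2108 came without DNTCF4-Vector replicate 1, also chosen after seeing the data. Leaving out that library with DNTCF4-SET replicate 2, an alternative chosen after seeing the data, gave 1513 genes (690 higher, 823 lower) against EZH2. The other settings (DESeq2's size factors and Wald test, limma on the deposited log values, other filters) stayed within 1.5 times of both counts. The causes were not tested. For SET against DNTCF4-Vector, left-out libraries gave 2912 to 4826 genes. Same-numbered libraries did not deviate together (correlations of -0.058, 0.013 and -0.055), and with the replicate number as a block 3673 and 662 genes were called. In all settings run, 43 interferon genes were lower and 31 to 37 mitosis genes higher. Of 233 named genes none reversed after being called, and 35 lost the call under at least 1 setting.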

Other observations

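Long noncoding RNA genes were mostly on the lower side, a pattern noticed after the values were seen. Of 859 such genes tested, 22 were higher with SET (2.56%) and 161 lower (18.7%), with a median of -0.20, against 14.4% higher and 14.2% lower of 12680 protein-coding genes. Hosts of small nucleolar RNAs were among them: of 13 Snhg genes 9 fell and 0 rose. Snhg20 went from 34.4, 44.6 and 39.7 CPM to 20.1, 21.0 and 18.7 (1.99-fold down, adjusted p = 4.85e-07), and Snhg15 from 29.0, 28.5 and 29.4 CPM to 14.7, 16.6 and 16.4 (1.82-fold down, adjusted p = 5.24e-08).

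A list of splicing factors of the SR family, CLK kinases and related nuclear speckle genes was also chosen after the values were seen. Of its 30 members 27 fell and 1 rose, with a median of -0.34, beside 13.9% and 13.0% of all genes. Against EZH2, 17 were lower with SET and 0 higher, beside 3.12% and 2.28% of all genes. Because the list was chosen with the values known, the distance of its counts from these shares adds no support. Arglu1, a splicing coactivator, went from 239, 214 and 210 CPM to 119, 120 and 121 (1.84-fold down, adjusted p = 3.23e-09), and Ccnl2, a cyclin linked to splicing, fell 1.62-fold (adjusted p = 5.24e-08). The member that rose was Malat1, a speckle-associated noncoding RNA, from 1663, 1241 and 1335 CPM to 1970, 1952 and 2033 (1.41-fold, adjusted p = 3.18e-04).

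Gm37376, a predicted transcript at chr19:5801941-5802393 on the plus strand (GRCm38), lies within the coordinates of Malat1, which is on the minus strand. It had 455, 595 and 365 counts with DNTCF4 alone and 0 in each SET library, which is at least 160-fold lower against a floor of 3 counts per library. Reads of these overlapping genes cannot be told apart without strand. The repetitive predicted genes Gm10801 and Gm10800 had 2 to 10 counts in the DNTCF4-Vector libraries and 141 to 403 in the SET libraries, with 413 to 1812 in PPGS-Vector.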
